A study of Mus musculus with 7 samples.

Results

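The histone genes described here are the genes whose symbols begin with Hist1h, Hist2h, Hist3h or Hist4h and whose normalized read count averaged at least 1 over all 7 libraries. Of 47729 genes in the table, 71 carried such a name and 59 reached that mean: 5 linker histone H1 genes, 15 H2A, 16 H2B, 10 H3 and 13 H4 genes. Of the 12 that did not, 8 had no read in any library. Hist1h1t, at a mean of 0.979, lay just outside the limit, and Hist2h2ab, at 1.27, just inside. RNA came from surface ectoderm, the embryonic skin epithelium, that had been laser-captured between the eye and the brain of mouse embryos at E12.5. There were 4 libraries from embryos with a knockout of the microRNA miR-205 (replicates 1 to 4) and 3 from wild type embryos (replicates 2 to 4). Each library pooled 3 embryos, and the allele, strain and sex are not given in the sources used here. A further wild type library, replicate 1, was removed by the submitters because it held other tissue, and it was not analysed here.

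Histone proteins package DNA. H2A, H2B, H3 and H4 form the core around which DNA is wound, and the linker histone H1 binds the DNA that enters and leaves it. Most genes of these names are transcribed in S phase, have no introns and make an mRNA that ends in a short stem-loop in place of a poly(A) tail. The stem-loop is bound by SLBP, and the end is cut with the help of the U7 snRNP. The cDNA kit used here primes from poly(A), so the values below count the histone mRNA that entered such a library, and how far this set the level of each gene was not tested.

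The sequences that these mRNAs share are shown first because the library method depends on how an mRNA ends. In the GENCODE M21 annotation of GRCm38, 57 of the 59 genes were found by their gene ID. The stem-loop, searched for as a fixed pattern that all forms below fit, was present in the longest annotated transcript of 37 of those 57. By class it was found in 3 of 5 H1 genes, 9 of 15 H2A genes, 7 of 14 H2B genes, 7 of 10 H3 genes and 11 of 13 H4 genes. Where it was not found, the annotated transcript may stop before it. Hist1h4k, for example, has 312 annotated bases, and the Hist1h4d stem-loop begins at base 353. These counts therefore describe the annotation and not how the mRNAs end. In all, 6 forms occurred, given here 5′ to 3′ with the bases that differ from the most frequent form in capitals.
Form of 20 genes (3 H1, 8 H2A, 5 H2B and 4 H3): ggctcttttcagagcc
Form of 7 genes (all H4, Hist1h4d among them): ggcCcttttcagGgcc
Form of 5 genes (2 H2B and 3 H3, Hist1h3c among them): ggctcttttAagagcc
Form of 2 genes (Hist1h4i and Hist2h4): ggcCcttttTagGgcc
Form of 2 genes (Hist1h4b and Hist1h4j): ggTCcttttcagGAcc
Form of 1 gene (Hist2h2ac): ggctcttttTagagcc
The 11 H4 stem-loops had forms that no gene of another class had. In 19 of the 37 genes the longest annotated transcript ran on for more than 100 bases past the stem-loop, Hist1h1e by 1153 bases and Hist1h4d by 770. Hist1h2ap was not among them, with 3 bases after the stem-loop. A polyadenylation signal (AATAAA or ATTAAA) lay in the last 50 bases of 13 of the 57 longest transcripts. Hist1h1e, Hist1h4d and Hist1h2ap had none there, and whether their mRNAs carry a poly(A) tail was not tested.

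The 5 H1 promoters are shown because H1 held the gene with the smallest p of all tested genes in the main fit described below. They come from RefSeq (GRCm38.p6) and span 110 bases that end shortly before the RefSeq start of each gene, 5′ to 3′ on the gene's strand. For Hist1h1d the GENCODE transcript begins earlier, at 23553262, so the stretch shown lies inside that transcript. Capitals mark AAACACA (the H1 box), CCAAT in either orientation, and TATAAA (the TATA box).
Hist1h1a, chr13:23763543-23763652, plus strand: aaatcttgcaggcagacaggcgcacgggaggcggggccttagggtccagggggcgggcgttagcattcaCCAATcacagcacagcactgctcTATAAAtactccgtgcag
Hist1h1b, chr13:21780641-21780750, minus strand: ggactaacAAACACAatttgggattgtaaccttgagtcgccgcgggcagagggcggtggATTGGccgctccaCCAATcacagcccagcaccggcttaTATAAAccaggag
Hist1h1c, chr13:23738682-23738791, plus strand: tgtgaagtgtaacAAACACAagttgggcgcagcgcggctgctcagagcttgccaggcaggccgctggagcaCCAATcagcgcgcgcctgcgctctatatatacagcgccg
Hist1h1d, chr13:23554907-23555016, plus strand: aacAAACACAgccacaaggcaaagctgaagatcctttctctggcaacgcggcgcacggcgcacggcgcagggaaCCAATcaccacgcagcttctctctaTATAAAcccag
Hist1h1e, chr13:23622574-23622683, minus strand: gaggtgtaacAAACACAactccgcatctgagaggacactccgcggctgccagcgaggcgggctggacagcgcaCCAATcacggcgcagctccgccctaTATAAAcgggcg
AAACACA was found in 4 of the 5, Hist1h1a being the exception, and CCAAT in all 5. Over the 51 histone promoters that could be matched, searched on both strands from 250 bases before to 50 bases after the start, AAACACA was present in 6, against 7.14% of all 27025 promoters. CCAAT was present in 42 of 51, against 37.92% of all promoters, and in 3 of the 12 H4 promoters. TATAAA was present in 32 of 51, against 14.16% of all. The octamer ATTTGCAT was present in 11 of 51, against 1.75%, with 6 of 14 H2A and 5 of 12 H2B promoters and none of the H1, H3 and H4 promoters. No marked motif overlaps another in the H1 stretches shown. Some H2A and H2B genes lie next to each other on opposite strands and share the stretch between them. A motif there can count for both genes. An example is the octamer between Hist1h2ae (minus strand, up to 23571220) and Hist1h2bg (plus strand, from 23571396). The 51 promoters are therefore not all separate sequences, and sites counted more than once were not removed. These matches describe the sequence and are not evidence of binding.

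The microRNA itself is shown to allow its seed to be looked for in the histone transcripts.
mmu-miR-205-5p, chr1:193507503-193507524, minus strand, seed (bases 2 to 8) in capitals: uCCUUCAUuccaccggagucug
The match to this seed, ATGAAGG, was in 0 of the 57 longest histone transcripts. Of 2481 protein-coding genes whose longest coding transcript was 312 to 1020 bases, 200 held it, or 8.06%, and 43 histone genes fall in that range. Mir205 itself had 0 reads in all 7 libraries. A library of long RNA does not hold mature microRNA, so that row does not check the genotype.

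The 7 libraries held 8903523 to 12504790 reads assigned to genes, and between 19318 and 20713 genes had a read. One read was worth 0.8597 to 1.221 normalized counts. Correlations of log values between libraries were 0.894 to 0.961. All 20 surface ectoderm markers, among them Pax6 and Krt5, were detected. Pax6 averaged 1295 ± 425 in knockout libraries and 1934 ± 248 in wild type libraries (SD, n = 4 and 3), and the ranges overlapped. The tests compare these pools of embryos, and the p-values measure the spread between them.

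The comparison asks how histone transcripts differ between ectoderm without miR-205 and wild type ectoderm. Most of the histone genes with enough reads to be tested were lower in knockout libraries, and no single one passed the test over all genes. Of the 38 histone genes that averaged 10 or more, 29 were lower and 9 higher (76.3% lower, where 48.3% of all 15029 tested genes were lower), and their median log2 difference was -0.31, against 0.01 over all tested genes. With limma-trend on log2(normalized count + 1) and adjustment over all 15029 genes, 0 histone genes had an adjusted p under 0.1, as did 0 genes of the table (0.0%). edgeR also called 0 genes, while DESeq2, fitted to 25300 genes with all 59 histone genes among them, called 227 genes, 2 of them histone genes. The 21 histone genes with lower means were split 10 lower and 11 higher by their means. When all 59 were fitted, with a filter at a mean of 1, 40 were lower and the median was -0.21. At an unadjusted p under 0.05, 1469 genes of the table differed. Here 7 of the 38 histone genes were lower (18.4%), where 4.34% of all genes were, and 0 were higher, where 5.44% were. In 10 of the 38 every knockout library lay below every wild type library (26.3%), where this held for 5.22% of all genes, and in 0 did every knockout library lie above, where 4.7% did. The count of 7 was 4 without wild type replicate 2, 4 without wild type replicate 4, and 4 with replicate number as a block. In that block fit knockout replicate 1 has no partner and adds nothing. Over all 15029 genes, those lower at an unadjusted p under 0.05 numbered 652 in the main fit. They numbered 668 without wild type replicate 2, 489 without wild type replicate 4 and 662 with the block. Bulk RNA cannot tell fewer cells of a type from less RNA per cell.

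In the authors' deposited table, 20 of the 59 genes had an adjusted p, and 2 of those were under 0.1 and lower, where 1.4% of all genes with an adjusted p were. They were Hist1h1e, with a deposited log2 fold change of -0.69 and an adjusted p of 3.51e-11, and Hist1h2ap, with -0.29 and 0.0319. A filter on normalized counts above 10 in every library also let Hist1h1e pass here (limma-trend adjusted p = 0.0996).

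Added up, the 59 genes had 9156 ± 598 normalized counts in knockout libraries and 11202 ± 314 in wild type libraries (SD, n = 4 and 3), or 81.7% of wild type. They made up 0.0853 to 0.0950% of each knockout library and 0.100 to 0.109% of each wild type library. The H1 sum was 1201, 1184, 1247 and 1312 in knockout libraries and 1741, 1676 and 1775 in wild type libraries. The H4 sum was 2280.1, 3440, 2925 and 2543 in knockout libraries, against 3579, 3656 and 3758 in wild type libraries. In both classes all knockout sums lay below all wild type sums. The H2A sum was also lower in every knockout library, with 3754, 3645, 3734 and 3578 against 3924, 4252 and 4402. The H2B sums overlapped, at 1135, 1422, 1315 and 1083 against 1495, 1209 and 1360.1, and so did the H3 sums, at 201, 167, 215 and 243 against 229, 285 and 264. A single gene carried a large share of several sums: Hist1h4d made up 90.3% of H4, Hist1h2ap 61.2% of H2A, Hist1h1e 45.2% of H1 and Hist3h2ba 37.0% of H2B. Without its leading gene, H1 had 718 ± 64.3 in knockout libraries and 893 ± 41.3 in wild type libraries, H4 had 283 ± 6.94 against 337 ± 38.2, and both still did not overlap. Without Hist1h2ap, H2A had 1505 ± 177 against 1524 ± 82.1, which overlapped, and without Hist3h2ba, H2B had 748 ± 22.9 against 896 ± 37.2, which did not. Sums weigh abundant genes most and are given with no test.

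**Figure D1:**
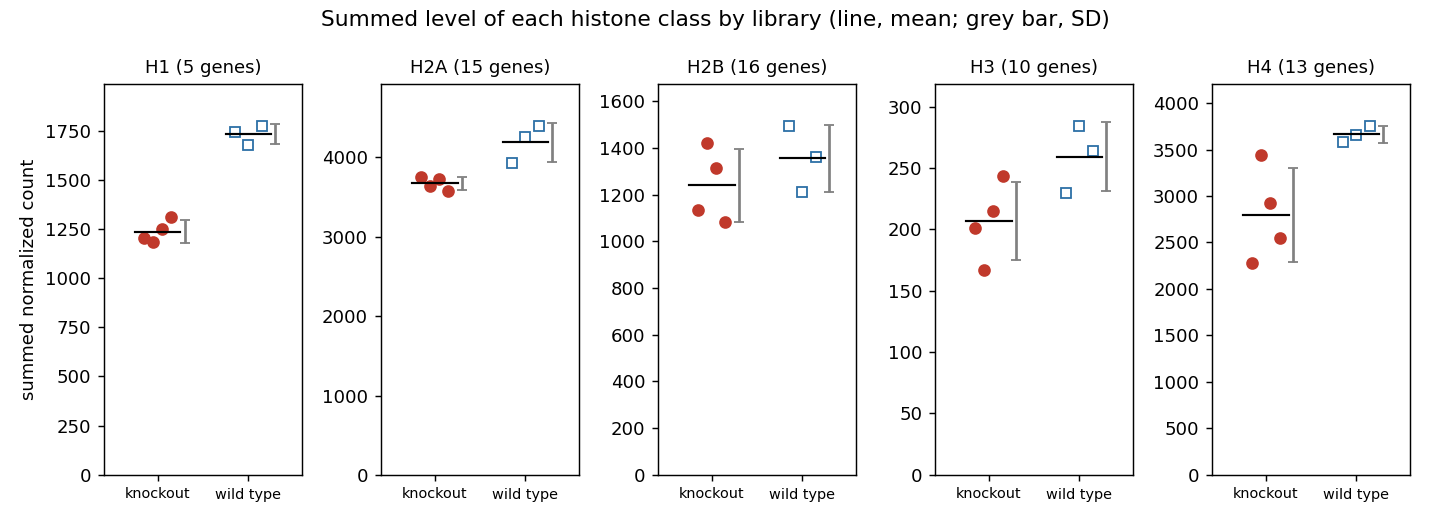
Summed normalized counts of the H1, H2A, H2B, H3 and H4 genes in each library (linear axis from 0, knockout left of wild type, line at the mean, grey bar 1 SD). The 4 knockout H1 sums lie between 1184 and 1312, below the 3 wild type sums of 1676 to 1775, while the H2B and H3 points overlap.

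All 5 linker histone H1 genes were lower in knockout libraries, with a median log2 difference of -0.55, 2 of them at an unadjusted p under 0.05, and in 3 the groups did not overlap. All of them lie on chromosome 13. Hist1h1e (ENSMUSG00000051627, chr13:23620629-23622558, minus strand, 1 exon of 1930 bases), which encodes a major somatic linker histone, had 542, 514, 501 and 517 normalized counts in knockout libraries, against 809, 826 and 877 in wild type libraries. The groups were far apart, and each was narrow. Its level averaged 519 ± 16.8 in knockout libraries and 837 ± 34.97 in wild type libraries (SD, n = 4 and 3), or 61.9% of wild type. The log2 difference was -0.69 with SE 0.09 and a limma-trend adjusted p of 0.127, the smallest of the 15029 genes tested. Over 19 other settings it was -0.72 to -0.66, with adjusted p from 1.59e-06 to 0.465. In some of these settings another gene had a smaller adjusted p than Hist1h1e. With DESeq2 the smallest was 1.07e-06, against 1.59e-06 for Hist1h1e. With limma-trend and the replicate block it was 3.68e-04, against 0.221 for Hist1h1e. The exon overlaps the genes Hist1h2be and Gm11398 on the same strand, so reads in the shared stretch cannot be assigned to one of them, and 75.3% of its 100-base windows occur in no other gene.

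Hist1h1d, another somatic linker histone, had 88.0, 80.2, 67.2 and 70.0 in knockout libraries, against 107, 124 and 104 in wild type libraries. The groups did not overlap, and the log2 difference was -0.55 with SE 0.23 (limma-trend adjusted p = 0.479). Its annotated transcript is 7425 bases long, and where its reads lie within that length is not known from the files used here. Hist1h1a had 42.9, 50.6, 40.7 and 39.4 in knockout libraries and 58.6, 61.04 and 74.8 in wild type libraries, again with no overlap, at a log2 difference of -0.57 with SE 0.28. The other H1 genes overlapped. Hist1h1c had 191, 202, 255 and 189.9 in knockout libraries, against 323, 224 and 279, where knockout replicate 3 exceeded wild type replicate 3, and its log2 difference was -0.39 with SE 0.18. Hist1h1b had 338, 336, 384 and 495 in knockout libraries, against 442, 441 and 442, where knockout replicate 4 was the highest of all, and its log2 difference was -0.20 with SE 0.15. Between them the 5 genes had 70.9 (Hist1h1a) to 553 (Hist1h1b) normalized counts per kb of exon, apart from Hist1h1d, at 12.3 over its long annotated transcript.

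**Figure D2:**
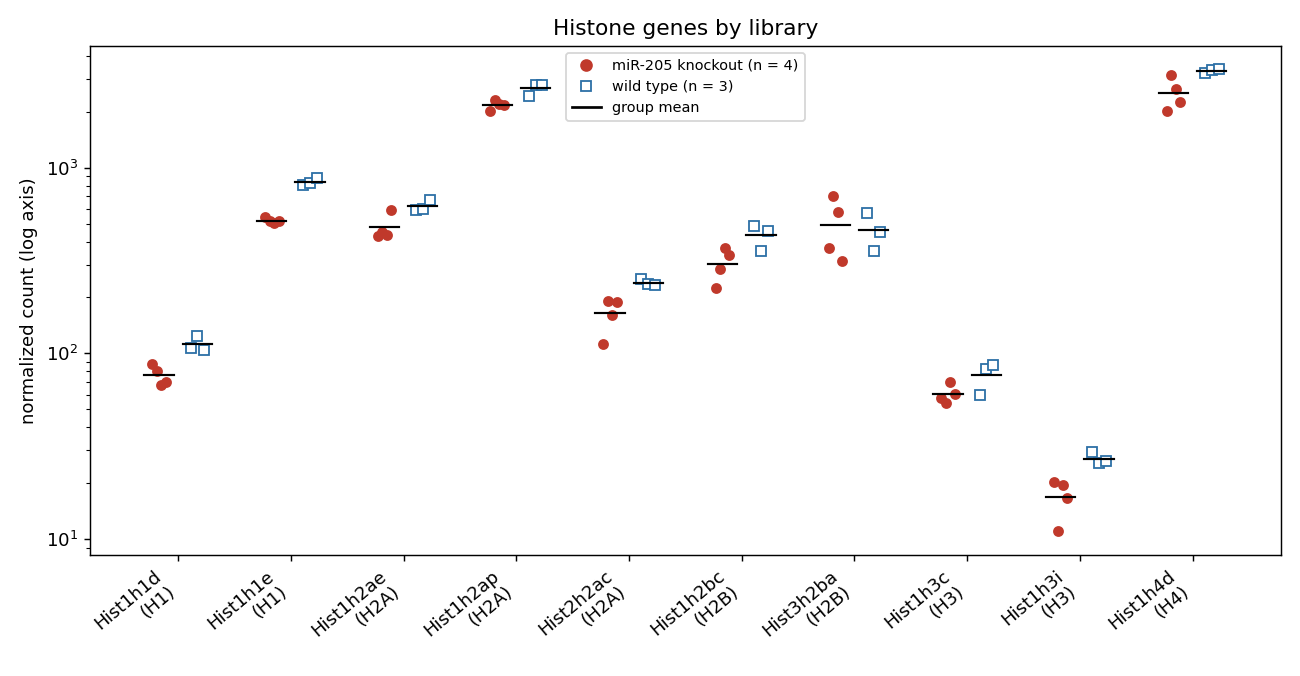
Normalized count (log axis) of the histone genes named in the text in each library, knockout left of wild type, with lines at the means. Hist1h1e has 501 to 542 in knockout libraries and 809 to 877 in wild type libraries, while the Hist3h2ba points are mixed.

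Of the 9 tested H2A genes, 7 were lower and 2 higher in knockout libraries, with a median log2 difference of -0.30. An unadjusted p under 0.05 was reached by 3 (Hist1h2ap, Hist1h2ae and Hist2h2ac), and in 3 the groups did not overlap (Hist1h2ap, Hist2h2ac and Hist1h2ac). Hist1h2ap (ENSMUSG00000094777, chr13:21833026-21833507, minus strand), the most abundant histone gene per length at 4948 normalized counts per kb of exon, had 2013, 2304, 2198 and 2176 in knockout libraries. Its values in wild type libraries were 2427, 2793 and 2786, all above the knockout values. The log2 difference was -0.30 with SE 0.08 (limma-trend adjusted p = 0.358). Only 7.8% of its 100-base windows are found in no other gene, so how reads were divided among its near copies is uncertain.

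Hist2h2ac, on chromosome 3, had 113, 192, 162 and 189 in knockout libraries and 250.2, 236 and 235 in wild type libraries, with no overlap, a log2 difference of -0.58 and SE 0.21 (limma-trend adjusted p = 0.448). Hist1h2ae had 429.8, 452, 434 and 592 in knockout libraries, against 589.6, 601 and 668 in wild type libraries. Knockout replicate 4 stood with wild type and the other knockout libraries below it, and the log2 difference was -0.39 with SE 0.13 (limma-trend adjusted p = 0.441). Hist3h2a, on chromosome 11, overlapped, at 351 ± 41.8 in knockout libraries and 331 ± 37.1 in wild type libraries (SD, n = 4 and 3). Hist1h2ab, singled out after its values were seen, had 742, 151, 433 and 139 in knockout libraries, against 176, 158 and 181 in wild type libraries. Knockout replicates 1 and 3 were high and replicates 2 and 4 low, and its log2 difference was 0.74 with SE 0.59. The 6 H2A genes that were too low to be tested had a lower knockout mean in 2 cases.

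Of the 10 tested H2B genes, 4 were lower and 6 higher, with a median log2 difference of 0.03, and in none did the groups separate. Hist1h2bc was the only one with an unadjusted p under 0.05. It had 226, 284, 369 and 340.5 in knockout libraries and 486, 358 and 457 in wild type libraries. Knockout replicate 3 lay above wild type replicate 3, so the groups overlap, and the log2 difference was -0.52 with SE 0.19 (limma-trend adjusted p = 0.448). Hist3h2ba, the highest H2B gene, had 370.0, 700.2, 579 and 312 in knockout libraries, against 571, 355 and 449.9 in wild type libraries. Knockout replicates 2 and 3 were the highest and replicate 4 the lowest, and the log2 difference was 0.05 with SE 0.29, turning to -0.15 without knockout replicate 2, -0.06 without knockout replicate 3 and -0.12 without wild type replicate 3. Hist2h2be averaged 236 ± 68.1 in knockout libraries and 228 ± 37.5 in wild type libraries (SD, n = 4 and 3), with overlap. Of the 6 H2B genes too low to be tested, 4 had a lower knockout mean. The gene listed as Hist2h2bb is a long noncoding RNA, Gm42743, in M21 under the same ID, and a further row of that name had no read in any library. Hist3h2bb-ps is a processed pseudogene in M21. Gm42743 and Hist3h2bb-ps are among the untested genes and stay in the H2B counts and sums.

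**Figure D3:**
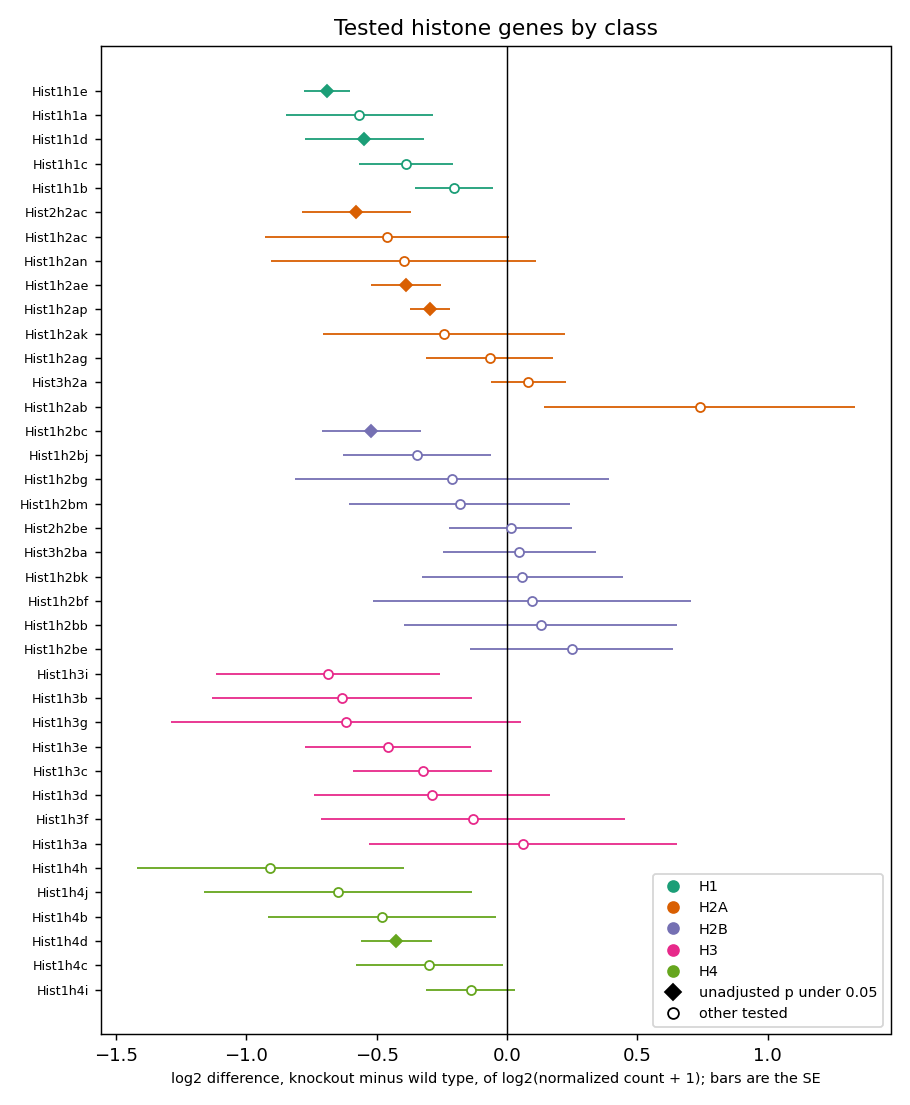
Log2 difference, knockout minus wild type, on the log2(normalized count + 1) scale, for the 38 tested histone genes by class (bars are the SE, filled diamonds an unadjusted p under 0.05, vertical line at 0). All 5 H1 and all 6 H4 genes lie below 0, as do 7 of 9 H2A, 7 of 8 H3 and 4 of 10 H2B genes.

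Of the 8 tested H3 genes, 7 were lower and 1 was higher, with a median log2 difference of -0.39, and none had an unadjusted p under 0.05. H3 also had the lowest sum of the classes, with no mean above 67.3. Hist1h3c, its highest gene, had 57.5, 53.9, 69.8 and 60.4 in knockout libraries and 59.8, 82.5 and 87.0 in wild type libraries. Wild type replicate 2 lay among the knockout values, and the log2 difference was -0.32 with SE 0.27. Hist1h3i had 20.3, 10.99, 19.4 and 16.6 in knockout libraries, against 29.3, 25.8 and 26.2 in wild type libraries. Its groups did not overlap, at a log2 difference of -0.69 with SE 0.43. The 2 H3 genes too low to be tested both had a higher knockout mean. Hist1h3b also separated, at 14.1 ± 4.75 in knockout libraries and 21.5 ± 2.51 in wild type libraries (SD, n = 4 and 3). At such counts a single read, worth 0.8597 to 1.221 normalized counts, is a visible part of a value.

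All 6 tested H4 genes were lower, with a median log2 difference of -0.45, 1 of them at an unadjusted p under 0.05, and in 2 the groups did not overlap. Hist1h4d (ENSMUSG00000061482, chr13:23581598-23582735, plus strand, 1 exon) had 2006, 3158, 2639.7 and 2253 in knockout libraries, against 3224, 3362 and 3395 in wild type libraries. The wild type values were close together, and knockout replicate 2 was just below the lowest of them. The log2 difference was -0.42 with SE 0.14 (limma-trend adjusted p = 0.431). Every 100-base window of this gene is unique, and it had 2515 normalized counts per kb of exon. Hist1h4j had 9.03, 15.4, 11.5 and 8.75 in knockout libraries, against 17.1, 16.3 and 19.6, with no overlap and a log2 difference of -0.65 with SE 0.51. Hist1h4h had the lowest log2 difference of all 38, -0.91 with SE 0.51, and its groups overlapped. Of the 7 H4 genes too low to be tested, 4 had a lower knockout mean.

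**Figure D4:**
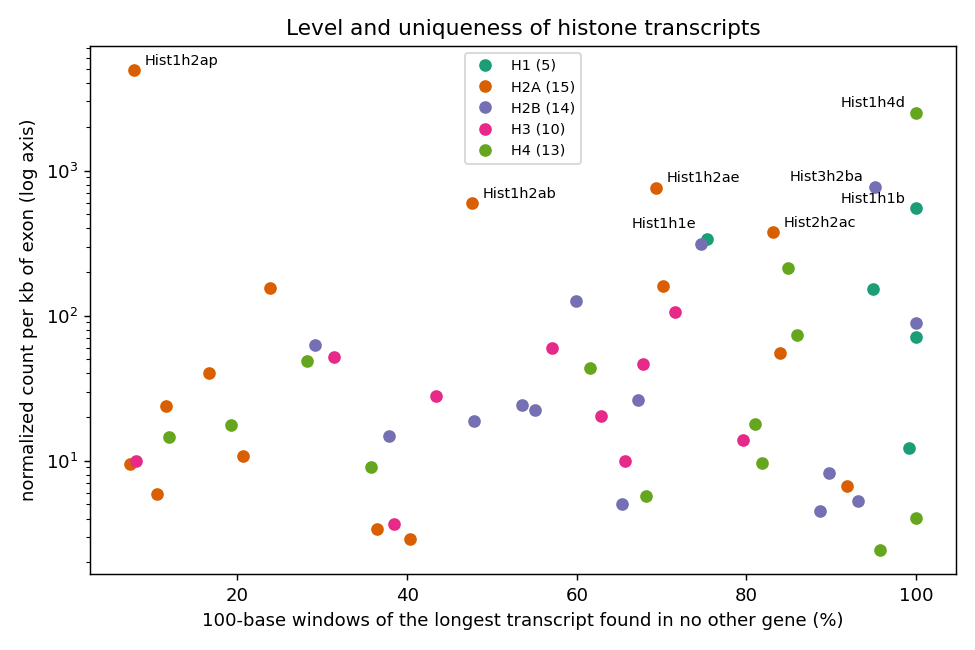
Normalized count per kb of exon (log axis) against the percentage of 100-base windows of the longest transcript found in no other gene, for the 57 histone genes matched in the annotation, coloured by class. Hist1h2ap combines the highest level, 4948 per kb, with 7.8% unique windows, and Hist1h4d has 2515 per kb with 100% unique windows.

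The genes were grouped after their values were seen by how their annotated transcripts end and where they lie, and no test is given. For each count below, the shares to set beside it are 76.3% lower among the 38 tested histone genes and 48.3% among all tested genes. Of genes whose transcript runs more than 100 bases past the stem-loop, 13 of 16 tested were lower, with a median log2 difference of -0.34. Of those running on for 100 bases or less, 8 of 13 were lower, with a median of -0.30. Where no stem-loop was found in the longest annotated transcript, 7 of 8 were lower, with a median of -0.46. Some of these transcripts may be annotated too short to reach it. On chromosome 13, 9 of 10 tested genes between 21715763 and 22043676 and 18 of 23 between 23531050 and 23764406 were lower. Neither of the 2 tested genes on chromosome 11 was lower. Of 21 genes with under 50% unique windows, 8 were tested and 6 of those were lower. Within the libraries above 10000000 reads, 2 of each genotype, 30 of 38 genes were lower in knockout libraries, with -0.74 for Hist1h1e and -0.47 for Hist1h4d. The share of all genes that were lower within these libraries was not computed, so the count of 30 has no background beside it. Below 10000000 reads there was only 1 wild type library, so no value is given.

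Genes outside the replication-dependent set were read from lists chosen with earlier results of these data known. None of them had an adjusted p under 0.1 with limma-trend. Of 11 genes listed as replication-independent histone variants, most of which are made outside S phase too and keep a poly(A) tail, 10 were lower and 1 higher. Their median log2 difference was -0.06. H2afz, the variant H2A.Z, had 17643 ± 1431 in knockout libraries and 19927 ± 1204 in wild type libraries (SD, n = 4 and 3), without overlap. Of 26 genes for histone mRNA processing and stability, 18 were lower and 8 higher, with a median of -0.09, and 4 were lower at an unadjusted p under 0.05 and 0 higher, where 4.34% of all tested genes were lower and 5.44% higher at that threshold. Those 4, Snrpg, Snrpe, Snrpd3 and Snrpf, encode Sm proteins, which are known from the spliceosomal snRNPs and from the U7 snRNP. Snrpg had 3392 ± 134 in knockout libraries and 4292 ± 244 in wild type libraries (log2 difference -0.34, SE 0.06), and Snrpe had 4025 ± 154 and 4900 ± 255 (log2 difference -0.28, SE 0.06). Snrpd3 and Snrpf had log2 differences of -0.18 and -0.17. Of 22 histone chaperones, 18 were lower, with a median of -0.10, Nasp among them at -0.27.

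Cell-cycle lists had medians nearer 0 than the histone median of -0.31, which is a description with no test. Of 29 S phase genes, 24 were lower and 5 higher, with a median log2 difference of -0.10. At an unadjusted p under 0.05, 3 of them were lower and 1 higher. Of 18 G2 and mitosis genes, 16 were lower, 1 of them at that threshold, with a median of -0.055. Over all tested genes 48.3% were lower, and at that threshold 4.34% were lower and 5.44% higher. A single gene of 18 or 29 is near those shares. The summed S phase level was 31748 to 41884 in knockout libraries and 34158 to 42294 in wild type libraries, which overlap. Tyms and Tk1, enzymes of thymidylate supply, had log2 differences of -0.25 and -0.22. Gins1, a subunit of the replicative helicase complex, differed by more than the histone median, at 380.3 ± 94.4 in knockout libraries against 508 ± 33.1 in wild type libraries (SD, n = 4 and 3), a log2 difference of -0.45 with SE 0.19. E2f1, a transcription factor of the G1 to S transition, was higher, at 741 ± 111 in knockout libraries against 566.5 ± 68.4 in wild type libraries. For both Gins1 and E2f1 the ranges of the genotypes overlapped.

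Markers of tissue make-up also differed in direction between the genotypes. All 20 surface ectoderm genes were lower in knockout libraries, with a median log2 difference of -0.32 and sums of 30931 to 50604, against 44623 to 55266 in wild type libraries. All 13 erythroid genes were lower, with a median of -0.61, and their sums ran from 163900 to 407640 in knockout libraries and from 195720 to 773660 in wild type libraries. All 17 neuron and neural progenitor genes were higher, with a median of 1.29 and sums of 8465 to 13961, against 2424 to 9350.0. Endothelial genes were higher in 11 of 12 (median 0.86, sums of 939.98 to 2803 against 732 to 1012), macrophage genes in 12 of 12 (median 0.89, sums of 1190.3 to 2229 against 512 to 1654), mesenchymal genes in 9 of 12 (median 0.25, sums of 20970.0 to 32403 against 19561 to 22578) and skeletal muscle genes in 10 of 10 (median 1.78, sums of 143 to 12889 against 62.8 to 2489). No marker of these lists was at 0 in every library. The ectoderm median of -0.32 is close to the histone median of -0.31. Knockout replicates 1 and 2 had the lowest ectoderm sums, 30931 and 32125. Without these libraries 5 of 38 histone genes were lower at an unadjusted p under 0.05, as were 479 of all 15029 tested genes. The log2 difference of Hist1h1e was then -0.72 (limma-trend adjusted p = 0.217). The part of tissue make-up in the histone differences, that of Hist1h1e included, was not tested.

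**Figure D5:**
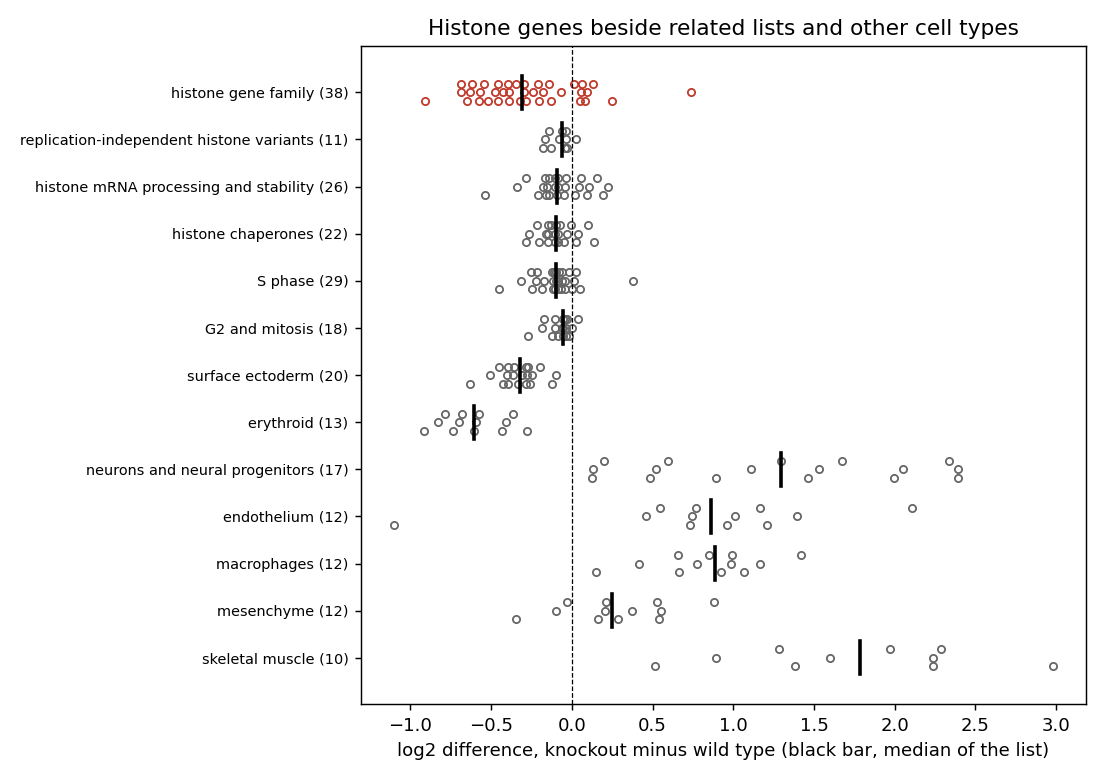
Log2 difference, knockout minus wild type, for each tested gene of the histone family and of 12 related and marker lists (number of genes in brackets, black bar at the median). Medians run from -0.61 for erythroid genes to 1.78 for skeletal muscle genes, and the histone median of -0.31 lies beside -0.10 for S phase genes and -0.32 for surface ectoderm genes.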

How the data were processed

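RNA sequencing was analysed for 7 libraries, 4 miR-205 knockout and 3 wild type, grouped by the labels. Per the labels' protocols, cDNA was made with a low-input template-switching kit and tagmented. Per the submitters' processing notes, the authors aligned reads to GRCm38 with TopHat2 2.0.9, counted them per gene with HTSeq and normalized them with DESeq2. The strand setting and annotation release are not given in the sources used here. The deposited signal values are the authors' normalized counts, and the deposited log2 fold changes, p-values and adjusted p-values are the authors' DESeq2 output. Division by the smallest value above 0 of a library gave whole reads for 100% of values (within 0.01 read).

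The 15029 genes averaging 10 or more were tested on the log2(normalized count + 1) scale by limma-trend 3.58.1 (R 4.3.3, robust), with Benjamini-Hochberg adjustment over all of them and a threshold of 0.1. Because the values are normalized, the count tests (edgeR 4.0.16 and DESeq2 1.42.0 on recovered reads) were alternatives, beside other pseudocounts, filters, moderation, scaling, a depth term, a replicate block and left-out libraries. The scripts were tested on simulated data. Precision is limited by counting error at low counts and by 4 and 3 libraries. Transcripts came from GENCODE M21 and promoters and microRNA from RefSeq, GRCm38.p6.

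Members and lists were chosen with earlier results of these data known. Genes were named by an unadjusted p under 0.05, a deposited adjusted p under 0.1, the highest mean or the smallest p in a class, and the smallest p values of each list. Other histone genes given with values, the motifs, and the grouping by transcript end and position were chosen after values were seen.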

Additional observations from a re-analysis of the deposited data

Results flagged for a closer look

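In the knockout libraries Hist1h2ae had 429.8, 452, 434 and 592 normalized counts. Knockout replicate 4 stood apart from the other 3, with a gap to its nearest neighbour of 0.864 of the whole range, above Dixon's critical value for 4 samples. Of 16 groups checked this way, this was 1, and chance alone marks about 1 in 20. Without knockout replicate 4 the log2 difference of Hist1h2ae was -0.50, against -0.39 with it.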

How the results depend on the processing

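Over all 15029 genes the count at an adjusted p under 0.1 was 0 in the main fit. It became 2 with a filter above 10 in every library (12947 genes fitted) and 227 with DESeq2 (25300 genes fitted). Over the 15029 genes it became 11 with depth as a covariate, 3 with replicate number as a block and 3 without knockout replicates 1 and 2. Leaving out 1 library at a time gave 0 to 84, with 84 without wild type replicate 2, 6 without knockout replicate 2 and 2 without knockout replicate 1. Histone genes called became 1 with the stricter filter (28 fitted), 2 with DESeq2 (59 fitted) and 1 with the depth covariate. They numbered 0 to 1 with 1 library left out (1 without wild type replicate 2). The gene was Hist1h1e each time, joined under DESeq2 by Hist1h2ap (adjusted p = 0.0840). Histone genes lower at an unadjusted p under 0.05 numbered 4 with the replicate block and 4 to 7 with 1 library left out. Over all 15029 genes the number lower at that threshold was 652 in the main fit and 662 with the block. It was 413 to 715 with 1 library left out. The cause was not tested. The Hist3h2ba difference was -0.013 with the depth covariate, -0.082 without knockout replicates 1 and 2, and -0.15 to 0.24 with 1 library left out, negative without knockout replicate 2 (-0.15), knockout replicate 3 (-0.06) or wild type replicate 3 (-0.12). Alternatives were run gene by gene for 10 histone genes, and the other 9 (Hist1h1d, Hist1h1e, Hist1h2ae, Hist1h2ap, Hist2h2ac, Hist1h2bc, Hist1h3c, Hist1h3i and Hist1h4d) were lower in all 19. Of these, 7 had been named for an unadjusted p under 0.05 in the same libraries, so their kept direction is no separate support. Deviations from the group means correlated weakly between same-numbered libraries (0.0965, 0.111 and -0.011), and in 0 of 3 numbers did both libraries correlate best with their own. With so few libraries these values cannot settle whether the numbers pair them. Counting error limits the 21 genes with means of 1.27 to 9.38, which were not tested in the reported comparison.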
